A study of Homo sapiens with 20 samples.

Results

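The m6A regions of human chromosome 22 were taken from the merged peak list of a MeRIP-seq comparison of a pair of bladder cancer cell lines. All regions on chromosome 22 were kept, which gave 1135 of the 43676 regions of the merged list. MeRIP-seq pulls down fragmented RNA with an antibody against N6-methyladenosine (IP) and compares it with input RNA that had no antibody. The T24 line is sensitive to cisplatin. Its resistant derivative T24R2 was raised from it by serial cisplatin exposure and kept in medium with the drug, so the lines differ in drug history and both descend from 1 tumour line. Both lines carry the label WT, were profiled at day 3, and have 5 IP and 5 input libraries each. Peaks were listed for the 10 IP libraries, each called against input. Nothing in the labels says that replicates were separate cultures, so p-values measure the spread between these samples only.

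m6A is placed on nascent RNA mainly by a METTL3-containing writer complex at the DRACH sequence context, and it is enriched near stop codons, in 3′UTRs and in long internal exons. Reader proteins that bind it affect splicing, translation and decay of the transcript. Chromosome 22 is a small, gene-dense chromosome. Its long arm carries the 22q11.2 interval that is deleted in DiGeorge syndrome, the APOL and APOBEC3 gene clusters, and cancer genes such as NF2, SMARCB1, CHEK2 and EP300.

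A region counted as present in a library if any peak of that library touched it by 1 bp or more. A region was called biased when at least 4 more of the 5 libraries of one line than of the other had it. These peak calls set the direction of every region below, so the counts of biased regions are a description without a test. A missing peak means that no peak passed the caller's threshold. It does not show that the RNA was unmethylated. The lists hold no read counts, so depth and transcript level are unknown, and whole cultures were profiled, so fewer cells with a transcript and less of it per cell cannot be told apart. The T24R2 lists were longer (22671 to 33120 peaks against 17203 to 22901). Counts from lists cut to the 17203 strongest peaks by q are therefore given below too. The cut also raises the q threshold of the longer lists, and the part of list length in the direction of the regions was not tested. Of 11 urothelial lineage genes, 5 held a region anywhere in the series and 2 of them, UPK2 and KRT7, held one called in all 10 libraries. The 5 regions of GATA3, a luminal transcription factor, had peaks in up to 5 T24 libraries and in 0 T24R2 libraries, while the KRT18 region had peaks in 0 T24 and 2 T24R2 libraries and the UPK1A region in 1 and 2.

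On chromosome 22 the share of T24R2-biased regions was close to that of the series, and T24-biased regions were few. T24R2-biased regions numbered 91 (8.02% of the chromosome's regions, against 7.11% of all regions of the series), and T24-biased regions numbered 14 (1.23%, against 2.09%). T24R2-biased regions thus made up 86.7% of the biased regions of the chromosome, the second highest share of the 23 chromosomes compared, after chromosome 6 with 88.8%. The lowest share was on chromosome 20, with 55.7%. Differences between chromosomes were not tested. With all lists cut to the same length, chromosome 22 had 34 T24R2-biased and 18 T24-biased regions (3.00% and 1.59%, against 3.02% and 2.63% over the series), so the T24R2 share of biased regions was 65.4% against 53.5%.

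The full grid of calls places every region. A peak was found in all 10 libraries at 256 regions (22.6%, against 21.9% over the series) and in a single library at 321 regions. More T24R2 than T24 libraries had the region in 624 cases, more T24 libraries in 197, and equal numbers in 314. Regions called in 5 of 5 T24R2 libraries and 0 of 5 T24 libraries numbered 41 (3.02% of all regions of the series were called so), and 5 regions were called in 5 of 5 T24 libraries and 0 of 5 T24R2 libraries (series, 1.05%). Just outside the rule, 87 regions had a difference of 3 libraries towards T24R2 and 24 towards T24.

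**Figure D1:**
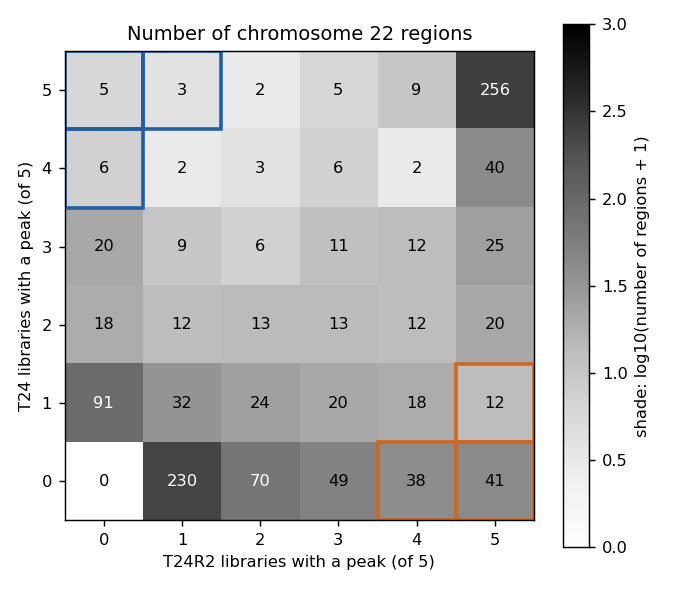
Number of chromosome 22 regions by the number of T24 libraries (vertical axis) and T24R2 libraries (horizontal axis) with a peak in the region; darker shades mark more regions on a log10 scale. Orange frames mark the T24R2-biased cells (38, 41 and 12 regions) and blue frames the T24-biased cells (6, 5 and 3 regions).

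The libraries behind the calls were uneven. T24R2 replicate 3 lacked 18 of the 91 T24R2-biased regions, replicate 1 lacked 11, and replicates 2 and 4 lacked 4 each. T24R2 replicate 5, which had the longest list, lacked 1. The T24 libraries that had one of the 91 regions were replicate 4 (7 regions), replicate 3 (3) and replicate 5 (2). Leaving out a library also makes the rule stricter, since biased then means a difference of 0.8 in the share of libraries. A region must be in every remaining library of the shortened line to be biased towards it, where the full rule admits 4 of 5. Under that rule, 55 regions were T24R2-biased and 15 T24-biased without T24R2 replicate 5. Without T24R2 replicate 4 the counts were 58 and 11. Without T24 replicate 1, 2, 4 or 5, 9 regions were T24-biased. These counts are therefore not a measure of the weight of 1 library alone.

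The sequence at some of the coding regions is shown first, because the mark has a known sequence context. Each line is 101 nt of the hg38 reference, 5′ to 3′ on the strand of the gene, centred on the median peak summit of a biased region whose window lies in CDS, with DRACH matches (where H stands for A, C or T, R for A or G, and D for A, G or T) in capitals. RIMBP3, CCDC116, MAPK8IP2, PIM3, MYH9 and OSBP2 are T24R2-biased, and MYO18B and PHETA2 are T24-biased.
RIMBP3, chr22:18606676-18606776, minus strand: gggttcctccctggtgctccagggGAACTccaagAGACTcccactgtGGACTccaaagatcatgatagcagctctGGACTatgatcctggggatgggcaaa
CCDC116, chr22:21636921-21637021, plus strand: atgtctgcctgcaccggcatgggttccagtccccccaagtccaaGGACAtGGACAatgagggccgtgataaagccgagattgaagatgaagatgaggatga
OSBP2, chr22:30889498-30889598, plus strand: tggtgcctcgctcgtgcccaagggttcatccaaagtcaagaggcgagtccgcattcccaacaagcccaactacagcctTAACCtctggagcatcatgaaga
MYH9, chr22:36289139-36289239, minus strand: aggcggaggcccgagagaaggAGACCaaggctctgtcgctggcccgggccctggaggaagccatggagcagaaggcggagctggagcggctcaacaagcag
PIM3, chr22:49961631-49961731, plus strand: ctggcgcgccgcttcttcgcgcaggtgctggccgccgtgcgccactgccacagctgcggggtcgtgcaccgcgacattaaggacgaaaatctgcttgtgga
MAPK8IP2, chr22:50604628-50604728, plus strand: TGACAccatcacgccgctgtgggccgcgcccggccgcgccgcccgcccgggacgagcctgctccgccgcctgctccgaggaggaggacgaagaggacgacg
MYO18B, chr22:25768687-25768787, plus strand: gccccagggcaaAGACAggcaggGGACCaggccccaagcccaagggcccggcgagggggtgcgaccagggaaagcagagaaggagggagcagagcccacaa
PHETA2, chr22:42077621-42077721, plus strand: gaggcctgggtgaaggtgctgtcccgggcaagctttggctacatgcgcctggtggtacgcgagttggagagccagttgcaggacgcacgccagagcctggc

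RIMBP3 holds 4 matches, CCDC116 and MYO18B hold 2 each, OSBP2, MYH9 and MAPK8IP2 hold 1 each, and PIM3 and PHETA2 hold 0. Over all exonic regions of chromosome 22 that lie in genes of 1 strand, 86.1% of 777 windows held DRACH on the gene's strand and 71.8% on the opposite strand of the same window. The share was 80.3% of 61 T24R2-biased regions, 83.3% of 12 T24-biased regions and 89.2% of 213 regions called in all 10 libraries. Taken per library, DRACH was found at 88.8 ± 1.32% of T24 and 87.9 ± 0.985% of T24R2 exonic peaks (SD, n = 5 each, 368 to 655 peaks a library), which did not differ beyond the spread of the libraries (difference -0.83 points, two-sided exact permutation p = 0.270). A match is a description of the letters, and no match says only that they are not in this window.

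Along the chromosome the biased regions fell into 24 runs, stretches of biased regions of one direction with none of the other between them. The runs alternated, 12 of T24R2 and 12 of T24, but their lengths differed. No T24 run held more than 2 regions, while the longest T24R2 run held 24 biased regions over 6.74 Mb (chr22:18606635-25349775). The next longest T24R2 runs were one of 18 regions over 8.12 Mb (chr22:42134533-50255106), one of 12 over 0.863 Mb (chr22:37877653-38740829) and a pair of 9 each. One held 6 regions, and the other 6 T24R2 runs held 1 to 3, among them 3 that were as short as the T24 runs. Runs cover unbiased regions too: 256 regions lay within the longest run and 229 within the next. In windows of 5 Mb, the share of T24R2-biased regions was highest between 40 and 45 Mb (12.1% of 132 regions) and between 15 and 20 Mb (11.5% of 131), and lowest between 45 and 50 Mb (3.52% of 142), leaving aside the 3 regions before 15 Mb. With lists of equal length the longest T24R2 run held 9 regions and the longest T24 run 4. Over the chromosomes compared, the longest T24R2 run in the full lists held 12 to 56 regions and the longest T24 run 2 to 15. Run lengths are to be read against the 91 T24R2-biased and 14 T24-biased regions, and were not tested.

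**Figure D2:**
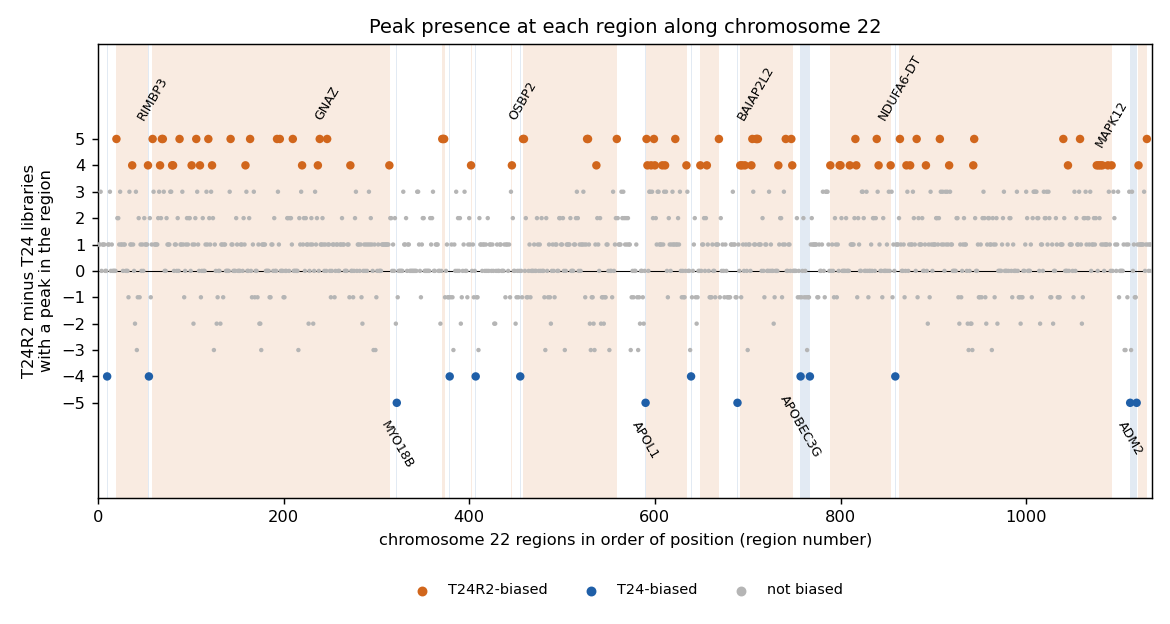
Each of the 1135 regions in order along chromosome 22 (horizontal axis) against the number of T24R2 minus T24 libraries with a peak (vertical axis). Orange points are the 91 T24R2-biased and blue points the 14 T24-biased regions, shading spans each run in the colour of its direction, and the first biased region of some genes is labelled.

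Biased regions lay in 78 genes, of which 64 held T24R2-biased regions alone, 12 held T24-biased regions alone, and TUBA8 and TTC28 held both. A further 7 T24R2-biased regions were intergenic. A gene block was set as 3 or more neighbours, among genes with a biased region in order of gene start, that share a direction. There were 5 such blocks, all of T24R2, with 20, 15, 7, 7 and 5 genes. Some neighbours overlap: the CPSF1P1 region also lies in an exon of SLC5A4-AS1, and the TUBA3FP region in one of THAP7-AS1. The lists carry no strand, so the gene counts of the blocks may be too high. Of the 66 genes with a T24R2-biased region, 22 also held a region called in all 10 libraries, as did 3 of the 14 genes with a T24-biased region. Counted by region, 33.0% of T24R2-biased and 21.4% of T24-biased regions had another exonic region of their gene called in all 10 libraries. Over all chromosome 22 regions the share was 45.9%.

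The longest block ran from RIMBP3 to an unnamed processed pseudogene across 22q11 and held 20 genes with 22 biased regions, of which 12 were found in 5 T24R2 and 0 T24 libraries. Its genes in order were RIMBP3 (a sperm protein), the lncRNA DGCR5, FAM246C, ESS2 (a spliceosome component), UFD1-AS1, TBX1 (a T-box transcription factor of heart and pharyngeal development), GNB1L, TXNRD2 (mitochondrial thioredoxin reductase), an unnamed processed pseudogene, TRMT2A (a tRNA methyltransferase), the pseudogene PRODHLP, SCARF2, THAP7-AS1, TUBA3FP (a pseudogene by name, typed protein-coding in the annotation used), CCDC116, PPM1F (a protein phosphatase), a pair of unnamed lncRNA genes, GNAZ (a G protein alpha subunit) and the unnamed pseudogene at the end. These genes held 72 regions in all, 64 of them leaning to T24R2, 1 to T24 and 7 to neither. With equal list lengths, 9 of the 22 biased regions, in 9 genes, were still T24R2-biased, and KIAA1671, within the span of the block, gained a T24-biased 5′UTR region. Near-identical copies exist for RIMBP3 and for the pseudogenes, and only uniquely mapped reads were kept by the authors, so their assignment is uncertain.

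At the TBX1 intron region (chr22:19777253-19777809) the fold enrichment of IP over input was 10.6, 15.8, 13.4, 8.94 and 9.21 in T24R2 replicates 1 to 5. The DGCR5 intron region (chr22:19029144-19029465) had values of 7.69, 13.2, 10.6, 16.8 and 8.72 in the same order. In the GNAZ intron (chr22:23114133-23114528) the values were 10.6, 11.6, 10.9, 10.2 and 7.37. None of these 3 had a peak in any T24 library, and all of them lie in introns rather than in mature exons. The TRMT2A coding region, which overlaps an exon of RANBP1 (chr22:20116069-20116311), had 4.11, 7.62, 6.23, 8.39 and 4.71. The ESS2 3′UTR region, which overlaps an exon of TSSK2 (chr22:19130839-19132121), was stronger, at 12.5, 14.1, 15.0, 16.1 and 12.6 in T24R2 and 5.39 in T24 replicate 5. This ESS2 region is thus an example of a call in 1 T24 library at a lower fold enrichment. ESS2 held 8 regions in all, and 3 of them were called in all 10 libraries.

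A list of 38 genes of the 22q11.2 interval gave a wider view. Regions were found in 27 of the genes, 98 regions in all. T24R2-biased regions numbered 7, in ESS2, TBX1, GNB1L, TXNRD2, TRMT2A and SCARF2, and 0 were T24-biased. The 7 are 7.14% of the 98 regions, against 7.11% of all regions of the series, which is close to the background. At the 29 regions of this list that were called in all 10 libraries, the median difference in log2 fold enrichment was 0.00 (T24R2 minus T24), against 0.02 over all such regions of the series.

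The block of 15 genes lay towards the end of the long arm, from NDUFA6-DT to MAPK12. Its named genes were NDUFA6-DT, TCF20 (a transcriptional coregulator), OGFRP1 (a pseudogene by name, typed lncRNA in the annotation used), RRP7A (ribosome biogenesis), SHISAL1, PHF21B, BRD1 (a scaffold of histone acetyltransferase complexes), ZBED4, PIM3 (a serine/threonine kinase), TRABD-AS1, SELENOO (a mitochondrial selenoprotein), TUBGCP6 (a subunit of the gamma-tubulin ring complex) and MAPK12 (the p38 gamma kinase). It held 17 biased regions and 56 regions in all, 43 leaning to T24R2, 1 to T24 and 12 to neither. Only 2 of the 17 kept their direction with equal list lengths. The calls here had a median within-list percentile of 13.7 for the weakest library (percentile of −log10 q, where 100 is the strongest peak of the list), against 22.7 in the 22q11 block and 35.5 over the chromosome's regions called in all 10 libraries.

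PIM3 and BRD1 show what a T24R2 region looked like there. The PIM3 coding region (chr22:49961595-49961984) had fold enrichments of 5.10, 6.71, 4.99, 8.53 and 8.64 in T24R2 and no peak in T24, while a 3′UTR region of the same gene was called in 4 T24 and 5 T24R2 libraries. The BRD1 coding region (chr22:49787445-49787963) had 7.21, 6.10, 5.48, 7.34 and 4.20 in T24R2 and no peak in T24. Another BRD1 coding region was called in all 10 libraries and did not differ in fold enrichment (log2 difference -0.27 ± 0.25, SE, limma adjusted p = 0.704). SELENOO held 3 T24R2-biased regions, each in 4 T24R2 libraries and 0 T24 libraries, with fold enrichments between 3.99 and 9.03. None of these PIM3, BRD1 and SELENOO regions was biased with equal list lengths.

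A shorter block of 7 genes packed 12 biased regions into 0.945 Mb: EIF3L (a translation initiation factor subunit), MICALL1 (endosomal recycling), SLC16A8 (a lactate transporter), BAIAP2L2 (a membrane-bending protein), DDX17 (an RNA helicase), an unnamed lncRNA and SUN2 (a nuclear envelope protein). Of these regions, 7 kept their direction with equal list lengths, in 5 of the genes. The SLC16A8 intron region (chr22:38079961-38080446) was the strongest of the named genes, with 17.4, 13.8, 13.1, 15.3 and 14.7 in T24R2 replicates 1 to 5. In the BAIAP2L2 3′UTR (chr22:38093307-38094013) the values were 9.70, 10.6, 9.15, 9.61 and 8.23, and BAIAP2L2 held a further pair of T24R2-only regions in introns. No T24 library had any of these. SLC16A8 and BAIAP2L2 are neighbours, and neither held a region called in all 10 libraries.

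The remaining blocks were TNRC6B (microRNA-guided silencing), XPNPEP3, RANGAP1 (the GTPase activator of Ran), ZC3H7B, PMM1, DESI1 and SMIM45, with 9 biased regions over 1.91 Mb, and OSBP2, SLC5A4-AS1, CPSF1P1, RFPL3 and TOM1, with 6 over 4.65 Mb. In each, 3 regions kept their direction with equal list lengths. OSBP2, an oxysterol-binding protein and one of the transcripts the study chose to follow, held a coding region (chr22:30889278-30889968) at 2.74, 3.92, 4.74, 3.61 and 5.46 in T24R2 and an intron region (chr22:30902962-30904074) at 10.0, 7.13, 8.38, 5.65 and 8.21. Neither had a peak in any T24 library, only the intron region was biased with equal list lengths, and the other OSBP2 region was called in 3 T24 and 2 T24R2 libraries. The paper reported lower OSBP2 expression and a more methylated OSBP2 exon peak in T24R2, both seen again by targeted PCR. That exon peak was not matched to the regions here. The antisense lncRNA SLC5A4-AS1 (chr22:32272972-32273469) had 7.46, 12.997, 10.6, 12.2 and 10.6. TNRC6B showed the mixed case, with a coding region in 4 T24R2 libraries and 0 T24 libraries (5.90 to 11.99) between a pair of coding regions called in all 10 libraries.

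MYH9, the heavy chain of non-muscle myosin IIA, held the most biased regions of any gene on the chromosome in the full lists, 5 of its 21 regions. The 4 biased coding regions of MYH9 were weak, with fold enrichments in T24R2 between 1.71 and 3.77, and the biased intron region lay between 6.19 and 9.52. The region at chr22:36289154-36289411 had 1.94, 2.56, 1.81, 1.80 and 1.71 in T24R2 and no peak in T24. Over the gene, T24R2 libraries had 18, 13, 13, 14 and 16 of the 21 regions and T24 libraries had 2, 2, 5, 9 and 5. The groups did not overlap, but neither did they over all chromosome 22 regions. T24 libraries had 377 to 508 of those and T24R2 libraries 553 to 822. MYH9 was picked by these same calls, so its counts are a description without a test. Of the 21 regions, 19 leaned to T24R2, 0 to T24 and 2 to neither. With equal list lengths 1 of the 5 MYH9 regions, in the intron, was still biased and 1 other joined it, fewer than the 3 of BAIAP2L2.

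Ranked by the percentile of its weakest library, the strongest T24R2-only region of the chromosome was intergenic (chr22:36949378-36950197), at 15.6, 15.8, 8.90, 22.1 and 24.1 in T24R2 replicates 1 to 5. MAPK8IP2, a JNK pathway scaffold, held the strongest coding region (chr22:50604079-50605042), at 10.9, 13.3, 9.98, 19.1 and 21.2. Both kept their direction with equal list lengths. The 8 strongest T24R2-only regions, 6 of them in the blocks, lay between the 45.8 and 71.4 percentile of their weakest library, above the median of 15.7 for all T24R2-biased regions.

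**Figure D3:**
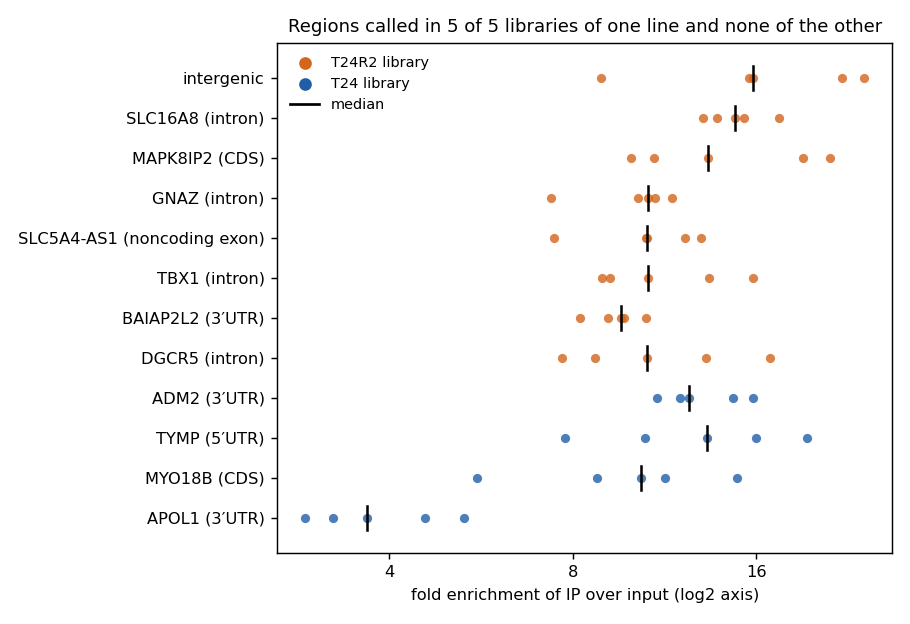
Fold enrichment of IP over input (log2 axis) in each library at the 8 T24R2-only regions with the strongest weakest call (orange) and at 4 T24-only regions chosen likewise (blue), with the median as a black line. The T24-only region of APOL1 lies below every other region shown, at 2.92 to 5.31.

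T24-biased genes formed no block of 3 or more in the full lists, and 2 pairs, ADM2 with TYMP and APOBEC3G with an unnamed lncRNA. With equal list lengths they formed a block of 4 (KIAA1671, GRK3, MYO18B and TTC28) and one of 3 (APOL3, APOL2 and APOL1). The 4 T24-only regions described here were in ADM2, TYMP, MYO18B and APOL1, and all of them kept their direction with equal list lengths, as did 12 of the 14 T24-biased regions. ADM2, which encodes the peptide hormone adrenomedullin 2, had a 3′UTR region (chr22:50482812-50483572) at 15.8, 12.4, 14.7, 11.99 and 11.0 in T24 replicates 1 to 5. A further ADM2 3′UTR region was called in 3 T24 libraries and 0 T24R2 libraries. The neighbouring TYMP, thymidine phosphorylase, had a 5′UTR region (chr22:50529254-50530004) at 7.78, 19.4, 10.5, 15.98 and 13.3, which also overlaps an exon of ODF3B, so the gene it belongs to is uncertain. ADM2 and TYMP formed a pair of T24 neighbours of 0.0485 Mb between a T24R2 block and a T24R2 pair. LMF2 lies between them, with a 3′UTR region called in 2 T24 and 5 T24R2 libraries, and with equal list lengths this region was T24R2-biased and parted the pair.

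MYO18B, an unconventional myosin, had a coding region (chr22:25768292-25769128) at 10.4, 11.4, 8.77, 14.9 and 5.58 in T24. No T24R2 library had a peak there. Further T24-biased regions were found in 4 or 5 T24 libraries and at most 1 T24R2 library. They lay in RASL10A (a small GTPase, 12.9 to 17.3 in T24 and 5.90 in T24R2 replicate 5), DUSP18 (a dual-specificity phosphatase), CYTH4 (an ARF exchange factor), PHETA2 (endosomal trafficking), APOBEC3G (a cytidine deaminase), TUBA8, TTC28 and a pair of unnamed lncRNA genes.

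APOL1, a lipoprotein-associated lytic factor, stood at a change of direction. Its 3′UTR region (chr22:36266846-36267345) was at 3.68, 3.24, 5.31, 2.92 and 4.58 in T24 with no peak in T24R2. An APOL1 coding region was called in all 10 libraries, with a log2 difference of 0.58 ± 0.33 (SE, T24R2 minus T24, limma adjusted p = 0.467). Past the annotated end of APOL1, at 830 bp and 1736 bp, came intergenic regions called in 5 of 5 T24R2 libraries, the first at 6.85, 6.41, 8.31, 6.60 and 7.81 with no T24 peak and the second with 1 T24 peak (4.25). Of the 12 regions of the APOL genes, 4 were called in all 10 libraries, 1 was T24-biased and 0 were T24R2-biased. The T24 block that APOL3, APOL2 and APOL1 formed with equal list lengths rested, beside the APOL1 region, on regions that the full lists called in 5 T24 and 3 or 4 T24R2 libraries. The APOBEC3 genes held 3 regions, of which APOBEC3F's was called in all 10 libraries and APOBEC3G's in 4 T24 and 0 T24R2 libraries.

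TTC28, a midbody protein, held both directions within introns in the full lists. A cluster of 3 intron regions between chr22:28282649 and 28285489 was called in 5 T24R2 and 0 T24 libraries, and another intron region (chr22:28505797-28506272) in 4 T24 and 0 T24R2 libraries. In TUBA8, an alpha-tubulin, a coding region was called in 4 T24R2 libraries and an intron region in 4 T24 libraries, with 0 libraries of the other line at each. With equal list lengths both genes kept their T24 region alone.

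Other lists gave the following counts, to be read against 7.11% T24R2-biased and 2.09% T24-biased over all regions. Cancer genes held 80 regions in 18 of 21 genes, with 7 T24R2-biased (8.75%, in MYH9, TNRC6B and PIM3) and 0 T24-biased. NF2, CHEK2 and EP300 held regions but none biased, SMARCB1 held no region, and EP300, a histone acetyltransferase, had 3 regions called in all 10 libraries. Redox and stress genes held 25 regions in 8 of 14 genes, 4 of them T24R2-biased (in TXNRD2 and SELENOO), and the stress transcription factor ATF4 had a pair of regions in 3 T24R2 and 0 T24 libraries, just outside the rule. RNA machinery genes held 36 regions with 4 T24R2-biased (11.1%, in TRMT2A, EIF3L, DDX17 and TNRC6B), and signalling genes held 73 with 4 T24R2-biased (5.48%, in IL17RA, RANGAP1, MAPK12 and MAPK8IP2). Listed lncRNA genes held 26 regions with 2 T24R2-biased (7.69%), both in DGCR5, and 0 T24-biased, as for RNA machinery, signalling and redox genes.

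Classes and strengths of biased and shared regions are given side by side. Noncoding exons are exons of transcripts without a CDS, including such transcripts of protein-coding genes. Of the 91 T24R2-biased regions, 27 lay in CDS, 19 in 3′UTR, 0 in 5′UTR, 19 in noncoding exons, 19 in introns and 7 in intergenic sequence. Of the 256 regions called in all 10 libraries, 100 lay in CDS, 96 in 3′UTR, 10 in 5′UTR, 26 in noncoding exons, 15 in introns and 9 in intergenic sequence. The 14 T24-biased regions comprised 2 in CDS, 4 in 3′UTR, 3 in 5′UTR, 3 in noncoding exons and 2 in introns. Median widths were 376 bp, 790.5 bp and 477.5 bp, respectively, and the median fold enrichment was 6.39, 8.52 and 7.27. These sets were chosen by the same peak calls, so their differences are given without a test.

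The class of the peaks, which did not choose the regions, was compared per library. T24R2 libraries had a smaller share of 5′UTR peaks and a larger share of noncoding exon peaks on chromosome 22. The 5′UTR held 5.65, 5.73, 5.15, 5.67 and 5.31% of peaks in T24 replicates 1 to 5 and 4.33, 3.26, 4.06, 3.73 and 4.82% in T24R2, so every T24 library was above every T24R2 library (means 5.50 ± 0.256% and 4.04 ± 0.593%, SD, n = 5 each, two-sided exact permutation p = 0.00794, Benjamini-Hochberg adjusted over the 6 classes p = 0.0238). Noncoding exons held 11.9 ± 0.695% and 13.9 ± 1.05% with no overlap between lines (exact permutation p = 0.00794, adjusted p = 0.0238). Both calls were lost when peaks with −log10 q of at least 5 were kept (adjusted p = 0.119 each, exact permutation), and the noncoding exon call was also lost with equal list lengths (adjusted p = 0.286, exact permutation). The shares of 3′UTR (29.8 ± 2.93% and 25.9 ± 1.71%, adjusted p = 0.0635) and introns (11.3 ± 2.68% and 15.1 ± 2.67%, adjusted p = 0.0714) did not pass after adjustment in the exact permutation tests with n = 5 each, and passed when T24R2 replicate 3 was left out (adjusted p = 0.0238 each). CDS (35.4 ± 2.01% and 33.7 ± 2.01%, adjusted p = 0.246) and intergenic sequence (6.15 ± 1.21% and 7.30 ± 0.547%, adjusted p = 0.124) did not pass either (exact permutation).

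**Figure D4:**
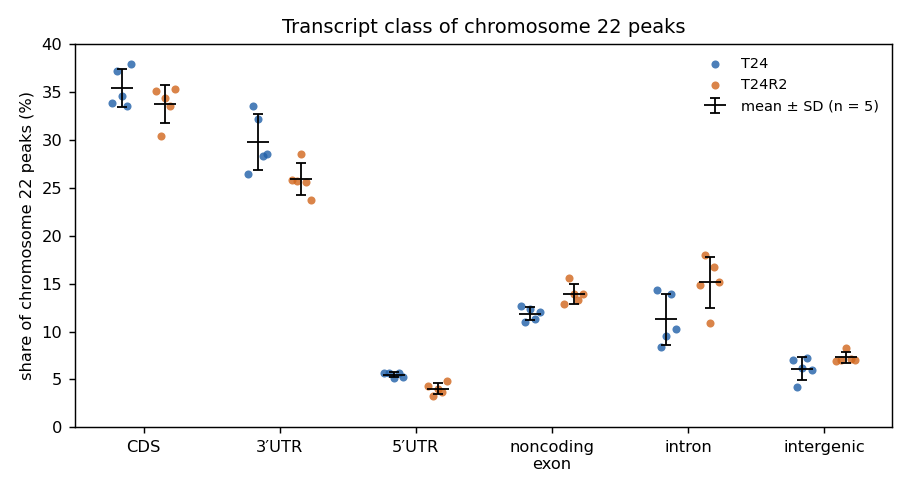
Share of each library's chromosome 22 peaks (%) by transcript class of the summit, in T24 (blue) and T24R2 (orange), 1 point per library with mean ± SD (n = 5) in black. The 5′UTR and noncoding exon shares of the lines do not overlap, and the other classes do.

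At regions called in all 10 libraries, the strength of the call was compared instead of its presence. Chromosome 22 gave 1 difference in 256 regions at a limma adjusted p under 0.05 (adjusted over all 9577 such regions of the series), with log2 fold enrichment centred on each library's median. It was higher in T24. Over the series, 51 regions were higher in T24R2 (0.533%) and 31 higher in T24 (0.324%), and without centring, which moved the median of all regions to 0.11, the counts were 60 and 17. On chromosome 22, 30 regions had an unadjusted p under 0.05, 23 higher in T24R2 and 7 in T24, which is 11.7% against 14.1% over the series. The median difference was 0.04 on the log2 scale, against 0.02 over all 9577 regions, with a median SE of 0.27, and single differences ran from -1.24 to 1.03.

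The called region lay in the 3′UTR and past the end of CRKL (chr22:20952594-20954087), an SH2 and SH3 adaptor protein of the 22q11.2 interval. Its fold enrichment was 15.0, 5.67, 11.6, 16.2 and 10.3 in T24 replicates 1 to 5 and 4.75, 7.48, 5.40, 4.70 and 3.54 in T24R2. The groups overlapped, because T24 replicate 2 was below T24R2 replicate 2. The difference was -1.24 ± 0.29 (log2, SE, n = 5 each, limma adjusted p = 0.0380). It did not pass without centring (adjusted p = 0.0777), with the mean over peaks (0.0890), with the replicate number as a block (0.0617), or when any library other than T24 replicate 2 was left out (adjusted p 0.0524 to 0.107). CRKL held 3 more regions called in all 10 libraries, with differences of 0.62 ± 0.26, -0.33 ± 0.27 and -0.41 ± 0.28 (log2, SE), none past the adjusted threshold. This region is T24-higher inside the span of the longest T24R2 block.

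The next regions by p did not pass. At CBX6, a Polycomb protein, the coding region (chr22:38865879-38867239) was at 3.24, 2.60, 2.61, 5.19 and 5.78 in T24 and 4.85, 8.46, 7.70, 9.28 and 11.1 in T24R2 (log2 difference 1.03 ± 0.28, SE, limma adjusted p = 0.0888), with overlapping groups. A TTC28 noncoding exon region (chr22:28000998-28002598) did not overlap, at 6.56 to 9.04 in T24 and 11.99 to 18.4 in T24R2 (0.78 ± 0.22, limma adjusted p = 0.102). The 3′UTR of MAPK11, a p38 kinase next to MAPK12, likewise did not overlap, at 6.34 to 8.88 and 9.07 to 16.2 (0.79 ± 0.25, limma adjusted p = 0.123). Uncentred values of the lines did not overlap at 6 of the 256 regions (2.34%, against 3.64% of the 9577). An intron region of ASPHD2 (chr22:26430267-26430586) was lower in T24R2 by value, -1.01 ± 0.31 (limma adjusted p = 0.122). Without T24 replicate 5, the ASPHD2 region (-1.33, limma adjusted p = 0.0244) and the CBX6 region (1.22, limma adjusted p = 0.0407) passed.

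**Figure D5:**
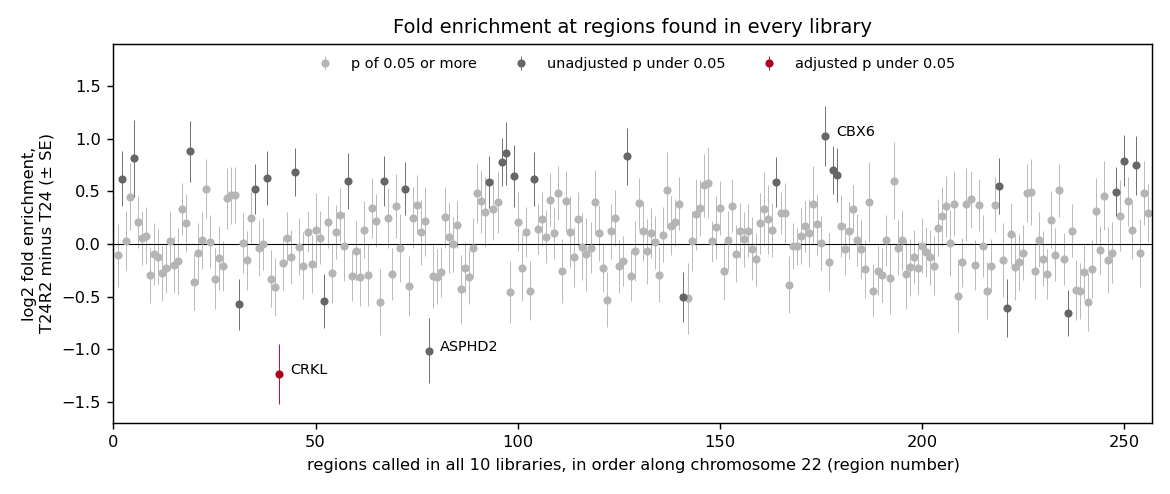
Difference in centred log2 fold enrichment (T24R2 minus T24, with SE as bars) at the 256 regions called in all 10 libraries, in order along chromosome 22. The CRKL region (red, -1.24) is the 1 difference past the adjusted threshold, and dark points mark the other regions with an unadjusted p under 0.05.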

How the data were processed

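MeRIP-seq of T24 and T24R2 gave 10 IP peak lists. Per the study's methods, the authors aligned reads to hg38 with STAR 2.7.0 and GENCODE v39, kept uniquely mapped reads without duplicates with SAMtools 1.10, and called peaks of IP over input per library with MACS2 (version 3.0.0a6 in the submitters' processing notes, no model, extension size 100). Replicates were not pooled. Each deposited row gives a fold enrichment (a ratio of IP over local input), a −log10 p, a −log10 q and a score that the authors' caller made from q. The study's count tests (DESeq2, edgeR and QNB) need read counts, which the peak lists do not hold, and were not run here.

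The deposited merged list equalled the merge of the 10 lists, no peak lay past a chromosome end of the hg38 reference, and no peak row was shared between lists. Positions are printed 1-based on hg38. Regions took the class of most of their summits in GENCODE 44 (in order of priority: CDS, 3′UTR, 5′UTR, noncoding exons, introns, intergenic). Noncoding exons are exons of transcripts without a CDS, which protein-coding genes can have too. Among the genes at the summits, protein-coding genes were named before others, and then the gene with the most summits. The lists carry no strand, so overlapping genes cannot be told apart. Class and DRACH shares were compared by a two-sided exact permutation test over libraries (smallest possible p 0.00794). Fold enrichment (highest peak per region and library, log2, no pseudocount) was compared with limma 3.58.1 in R 4.3.3 and adjusted by Benjamini-Hochberg over all 9577 regions called in every list. The code was tested on simulated data. Depth is unknown, so no counting interval is given.

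The chromosome, its members and all gene lists were chosen with earlier results of these data known. Named genes are, per direction, up to 8 regions found in all 5 libraries of one line and none of the other with the highest within-list percentile in their weakest library, the genes of the 3 longest blocks, limma calls, list members with a biased region, and OSBP2. Genes named outside this rule (those of the other blocks, the remaining T24-biased genes, EP300, ATF4, CBX6, MAPK11, ASPHD2 and members of lists without a biased region) were chosen after their values were seen. A T24-only region among the counts is not reported by name here. Alternatives were other q thresholds, equal list lengths, a cover of 50% of the region, a difference of 3 libraries, other scalings, a replicate block, another class order, window and motif, and leaving out each library (biased then meaning a difference of 0.8 in the share of libraries).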

Additional observations from a re-analysis of the deposited data

Results flagged for a closer look

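Among 28 groups of 5 libraries over 14 measures, 2 had a library standing far from the others by Dixon's test, where chance flags about 1 in 20. T24R2 replicate 5 had 892 chromosome 22 peaks, against 671 in the next highest T24R2 library. Its share of peaks on chromosome 22, 2.69%, lay within the range of the other T24R2 libraries (2.572 to 2.696%). Without it, 55 regions were T24R2-biased and 15 T24-biased, under the stricter rule used when a library is left out. T24R2 replicate 3 had 8.27% of its chromosome 22 peaks in intergenic sequence, against 7.15% in the next highest T24R2 library. The same library lacked the most T24R2-biased regions, 18 of 91, and without it the intergenic difference between lines was still not past the adjusted threshold.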

How the results depend on the processing

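The counts of biased regions moved with the peaks admitted, the overlap required and the difference required. T24R2-biased regions numbered 91 in the full lists, 34 in lists of equal length, 49 with −log10 q of at least 10 and 178 with a difference of at least 3 libraries. T24-biased regions numbered 14, and 9 at −log10 q of at least 5, 6 at 10, 3 with a cover of at least 50%, and 38 with a difference of 3. Leaving out 1 library gave 55 to 91 T24R2-biased and 9 to 15 T24-biased regions, under the stricter rule that then applies. Of the members, 30 of 91 and 12 of 14 kept their direction with equal list lengths, and 10 and 2 kept it under all 4 peak settings (both q thresholds, equal lengths and cover). With equal lengths the longest runs were 9 (T24R2) and 4 (T24) and there were 2 T24 gene blocks; with a difference of 3 there were 51 runs and 12 T24R2 gene blocks.

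T24-higher limma calls numbered 0 without centring, with the mean over peaks and with the replicate block, and 0 to 1 when a library was left out: CRKL without T24 replicate 2 and ASPHD2 without T24 replicate 5. T24R2-higher calls ranged from 0 to 1, the 1 being CBX6 without T24 replicate 5. Replicate numbers did not pair the samples (correlations of same-numbered deviations -0.042 to 0.121), and the block changed the class calls too: 5′UTR and noncoding exon had adjusted p = 0.0938 (exact permutation within pairs, differences -1.46 and 2.02), where 5 pairs cannot go below 0.0625 unadjusted. Equal list lengths turned the CDS difference to 0.33 points, the intergenic difference to -0.92 and the DRACH difference to 0.27, none past the threshold, and gave 1.03 for noncoding exons. At −log10 q of at least 5 the 5′UTR difference was -1.48 and that of noncoding exons 1.45, and with UTRs before CDS the 3′UTR difference of -3.84 passed (adjusted exact permutation p = 0.0476). Leaving out 1 library gave -4.72 to -2.95 points for 3′UTR and 3.11 to 4.89 for introns. The cause of these changes was not tested, except that higher thresholds and shorter lists hold fewer peaks. Of 183 alternative values over 17 results, 130 changed neither direction nor call, or stayed within the margin of the main value. Most of these, 94, came from leaving out 1 library. Among the rest of the 183, 30 counts moved past the margin, 17 values lost a call, 3 gained a call and 3 reversed. Unknown depth limits what a missing peak can show.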

Other observations

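Among all 351 chromosome 22 genes with a region, biased or not, the summed difference in calls leaned to T24R2 in 225 genes, to T24 in 64 and to neither in 62. The longest stretch of neighbouring genes that leaned to T24R2 held 17 genes and ran from MIR3667HG to PLXNB2, through BRD1, PIM3, PANX2, SELENOO, TUBGCP6, MAPK12 and MAPK11. The next longest held 13 genes from RIMBP3 to UFD1-AS1, through DGCR2, CLTCL1 and HIRA, and a further one held 12 genes from an unnamed gene through IL17RA, CECR2 and BCL2L13 to TMEM191B. No T24 stretch held more than 3 genes. The T24 stretches of 3 were GRK3, MYO18B and ASPHD2, the genes APOL3, APOL2 and APOL1, an unnamed gene with APOBEC3G and CBX7, and a group ending in ATXN10. These stretches rest on the same peak calls as the runs and were not tested.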
